A study of Mus musculus with 20 samples.

Results

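The immediate early genes of the mouse aortic endothelium described here are 10 genes: Fos, Fosb, Jun, Junb, Egr1, Egr2, Egr3, Atf3, Ier2 and Nr4a1. They were chosen by gene symbol and are 10 of the 32081 genes in the deposited expression table. All 10 are also in the deposited table of variance-stabilized values, and all 10 passed the filter on low values, a mean of at least 0.5 FPKM (fragments per kilobase of gene, scaled to the library's assigned reads), which left 16848 genes.

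RNA was sequenced from 20 female mice in 5 groups of 4. All mice were of the strain B6.129P2-Apoetm1Unc/J, carried the Apoe-/- genotype and had 5/6 nephrectomy (surgical removal of most kidney tissue) at 9 weeks of age on regular chow. At 7 weeks after surgery each mouse received 1 retro-orbital injection, and the aorta was taken 1 week after that, when the endothelium was sheared off into a lysis reagent. The injection was saline (mice 1, 2, 9 and 24), 4 mg of HDL (high-density lipoprotein; mice 3, 4, 11 and 23), HDL + LNA92a (mice 5, 12, 17 and 18), HDL + LNA489 (mice 7, 13, 14 and 19) or HDL + LNA92a + LNA489 (the dual group: mice 8, 10, 15 and 21). An LNA is a short oligonucleotide of locked nucleic acid, here complementary to miR-92a-3p or to miR-489-3p and meant to block it. The dose was 20 mg/kg of each, 40 mg/kg in all where both were given. Among the 20 samples every inhibitor came with 4 mg of HDL, none was a control LNA, and none was from an unoperated or Apoe-positive mouse, so the groups test the additions to HDL within 1 disease model.

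Immediate early genes are transcribed within minutes of a stimulus from factors already in the cell, such as SRF with its ERK-activated partners and CREB, without new protein synthesis. Growth factors, calcium, shear stress and mechanical or heat stress all induce them, which is why tissue dissection and cell dissociation raise them as well. Most of their products are transcription factors: Fos and Jun proteins pair into the AP-1 factor, Egr proteins are zinc-finger factors, and the mRNAs are short-lived.

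The sequences given here are promoters of members that were high in the same libraries, those of 2 members that were not (Jun and Atf3), and the seeds of the inhibited microRNAs. A relation of these sequences to the members' levels was not tested. For each of the 10 members, windows of 250 bases before the transcription start were looked up in RefSeq, which gave 7 members (Fos, Fosb, Jun, Junb, Egr2, Atf3 and Nr4a1). The windows below run 5′ to 3′ on the gene's strand and end at the base before the start. Capitals mark the CREB half-site TGACG or its complement CGTCA.
Fos (GRCm38.p6, chr12:85473640-85473889, plus strand): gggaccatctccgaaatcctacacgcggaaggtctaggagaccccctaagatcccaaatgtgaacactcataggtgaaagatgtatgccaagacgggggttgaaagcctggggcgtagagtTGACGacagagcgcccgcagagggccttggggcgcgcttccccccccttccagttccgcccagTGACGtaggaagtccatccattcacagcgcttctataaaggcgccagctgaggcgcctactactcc
Fosb (GRCm38.p6, chr7:19310046-19310295, minus strand): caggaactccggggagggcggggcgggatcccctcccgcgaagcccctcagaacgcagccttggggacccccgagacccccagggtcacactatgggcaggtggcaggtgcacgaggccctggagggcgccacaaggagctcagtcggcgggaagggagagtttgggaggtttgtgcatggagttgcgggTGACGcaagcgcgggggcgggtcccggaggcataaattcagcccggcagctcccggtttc
Junb (GRCm38.p6, chr8:84978749-84978998, minus strand): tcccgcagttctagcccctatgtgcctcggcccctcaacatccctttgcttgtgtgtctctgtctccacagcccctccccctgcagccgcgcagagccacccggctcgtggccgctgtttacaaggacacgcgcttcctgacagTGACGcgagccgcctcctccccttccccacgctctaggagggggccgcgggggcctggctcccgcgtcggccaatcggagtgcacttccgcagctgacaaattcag
Nr4a1 (GRCm38.p6, chr15:101266596-101266845, plus strand): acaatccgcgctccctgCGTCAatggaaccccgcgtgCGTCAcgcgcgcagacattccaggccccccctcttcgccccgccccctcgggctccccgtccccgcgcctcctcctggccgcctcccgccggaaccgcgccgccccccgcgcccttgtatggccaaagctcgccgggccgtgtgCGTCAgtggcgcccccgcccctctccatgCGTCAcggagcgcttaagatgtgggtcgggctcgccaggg
Jun (GRCm38.p6, chr4:95052223-95052472, minus strand): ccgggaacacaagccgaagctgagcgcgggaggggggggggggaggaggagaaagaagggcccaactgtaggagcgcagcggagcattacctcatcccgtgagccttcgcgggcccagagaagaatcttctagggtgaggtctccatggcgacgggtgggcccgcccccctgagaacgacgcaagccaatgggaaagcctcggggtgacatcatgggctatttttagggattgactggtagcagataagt
Atf3 (GRCm38.p6, chr1:191183334-191183583, minus strand): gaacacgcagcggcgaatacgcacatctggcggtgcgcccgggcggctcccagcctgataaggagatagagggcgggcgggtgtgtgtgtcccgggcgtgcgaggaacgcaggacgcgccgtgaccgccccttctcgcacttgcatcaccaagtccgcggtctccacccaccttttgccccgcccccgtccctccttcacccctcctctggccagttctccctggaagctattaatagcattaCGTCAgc

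The half-site TGACG on either strand was in a window of 6 of the 7 members and in 17.8% of 32851 RefSeq windows of the same length. A member was counted if any of its windows matched, which gave Egr2 5 windows and the others 1 each. The percentages are per window, so the shares are not on the same footing. Nr4a1 held 4 copies, Fos 2, and Fosb, Junb and Atf3 1 each. Egr2, which has 5 annotated starts, held 2 in each of 3 windows. The Jun window held none. The full CREB site TGACGTCA, of which the half-site is a part, was in 0 of the 7 and in 1.55% of all windows. The AP-1 site TGANTCA was in 0 of the 7 and in 6.75% of all. The SRF-binding CArG box was in 1 of the 7, Egr2, and in 1.47% of all windows. Such a match is a description of these letters in this window. Bases farther upstream and variants of these motifs were not searched, and Egr1, Egr3 and Ier2 had no window. A motif not found here can therefore still be present near the gene.

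The mature microRNAs that the LNAs inhibit are shown with the seed, bases 2 to 8, in capitals.
miR-92a-3p: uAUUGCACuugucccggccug
miR-489-3p: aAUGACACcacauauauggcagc
A site complementary to these 7 seed bases was searched in the annotated 3′ UTRs (GENCODE M21). Of the 10 members Egr2 alone held one for miR-92a-3p, at bases 584 to 590 of a UTR of 1200 bases, and 7.51% of 12947 tested coding genes held one. None of the 10 members held one for miR-489-3p, against 10.2% of those genes. The Egr2 site is printed with its flanks, the seed match in capitals.
Egr2 site: agagaatggaaGTGCAATgtcgggcagga

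The 20 libraries held 11.6 to 21.4 M (mega) assigned reads, with 17378 to 23365 genes read at least once, and the ribosomal gene Rn18s-rs5 took 3.25% to 22.4% of the reads. The highest shares, 22.4%, 19.1% and 18.2%, were those of LNA92a mice 17, 5 and 18. These libraries also held the fewest reads, 12.1, 11.6 and 11.6 M. LNA92a mouse 12 had 6.07% and 17.8 M. The part of these library traits in the LNA92a comparisons was not tested. Endothelial markers were read in every library, but their summed level ranged from 56.4 to 2042 FPKM. Pecam1, an endothelial adhesion molecule, ranged from 10.8 to 1008.5 FPKM, and Cdh5, the endothelial cadherin, from 4.51 to 183.7 FPKM. Markers of adipocytes (Adipoq 3.33 to 373.1 FPKM, Plin1 0.865 to 136.2 FPKM), fibroblasts and macrophages (Adgre1 5.31 to 32.1 FPKM, Csf1r 13.0 to 67.2 FPKM) were also read in all 20, so the libraries hold mixtures. In such bulk RNA a change in the number of cells of a type and a change in RNA per cell cannot be told apart. Apoe itself read 2.32 to 26.0 FPKM in the 20 libraries, a level over the whole gene that does not check the targeted allele.

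No difference of a member between groups passed the test. In HDL against saline, LNA92a against HDL, LNA489 against HDL and dual against HDL, limma called 0 of the 10 at an adjusted p under 0.05, and the background was 0% of 16848 genes in each. At an unadjusted p under 0.05 limma again found 0 of the 10 in each of the 4, against 1.67%, 3.53%, 3.79% and 2.47% of all genes. The F-test over the 5 groups found 0 members and 0% of all genes at the adjusted threshold, and 0 members and 1.68% of genes unadjusted. The contrast that asks whether one inhibitor acts differently with the other present also called 0 members and 0% of genes (0 members and 3.15% of genes unadjusted). The 6 other pairs of groups called 0 members and 0% of genes. At an unadjusted p under 0.05 they held 1, 0 and 1 members against saline (LNA92a 4.4% of genes, LNA489 2.72%, dual 1.05%) and 0 members between inhibitor groups (LNA489 against LNA92a 1.92%, dual against LNA92a 2.46%, dual against LNA489 1.64%). In the 4 main comparisons, 0 members had groups that did not overlap on the variance-stabilized scale (0.973%, 2.22%, 1.54% and 1.88% of genes). Of the other pairs only dual against saline had such a member, 1 of 10 (0.962% of genes), and LNA92a and LNA489 against saline (2.9% and 1.15%) and the pairs of inhibitor groups (1.39%, 2.85% and 1.34%) had 0. Voom on recovered reads, limma on log2 FPKM and the other alternatives called 0 members too. In the 4 comparisons 4, 7, 6 and 6 of the 10 members were higher in the first-named group, as were 54.0%, 44.2%, 44.8% and 46.4% of all genes. The members' median differences were -0.02, 0.11, 0.11 and 0.11 on the variance-stabilized log2 scale, and those of all genes 0.03, -0.06, -0.05 and -0.03. On that scale differences of weakly read genes are compressed. All 4 comparisons share the 4 HDL libraries, with opposite sign in HDL against saline, so their values are given side by side without a count of agreement. In the 3 inhibitor comparisons 8 of 8 adipocyte markers were higher in the inhibitor group (medians 2.11, 1.48 and 1.13, 0 called), as were 8 of 8 fibroblast markers (1.39, 1.55 and 0.76, 0 called). Of the striated and cardiac muscle markers 7, 8 and 6 of 8 were higher (medians 3.01, 1.90 and 0.83, 0 called, and 5, 2 and 0 at an unadjusted p under 0.05 by limma). Their summed level ranged from 6.16 to 328 FPKM in saline, 22.5 to 35.2 in HDL, 53.2 to 574 with LNA92a, 19.8 to 909 with LNA489 and 15.7 to 107 in the dual group. Of the macrophage markers 5, 10 and 10 of 10 were higher (medians 0.01, 0.45 and 0.95, 0 called, and 0, 1 and 5 at an unadjusted p under 0.05 by limma). Summed adipocyte markers ranged from 66.8 to 1619 FPKM in saline, 74.4 to 2562 in HDL, 458 to 2881 with LNA92a, 151 to 1951 with LNA489 and 66.3 to 1989 in the dual group. The part of these cell types in the members' values was not tested.

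The members' standard errors were large. The median SE of a difference was 0.56 for the members and 0.36 for all genes tested. The spread between mice of 1 group was widest for Fos, with a within-group SD of 1.35 that exceeded that of 96.4% of tested genes. Nr4a1 followed at 1.23 (94.7%), Atf3 at 1.07 (91.6%), Egr3 at 0.99 (89.3%) and Egr1 at 0.93 (87.4%). Egr2 at 0.77 and Fosb at 0.76 exceeded 80.2% and 78.9% of genes. Jun (0.61), Junb (0.59) and Ier2 (0.48) lay nearer the median gene, at 0.51. Group membership accounted for 1.4% of the variance of Fos and 1.3% of that of Egr1, and for 36.4% of that of Egr2, beside a median of 15.98% over all genes.

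**Figure D1:**
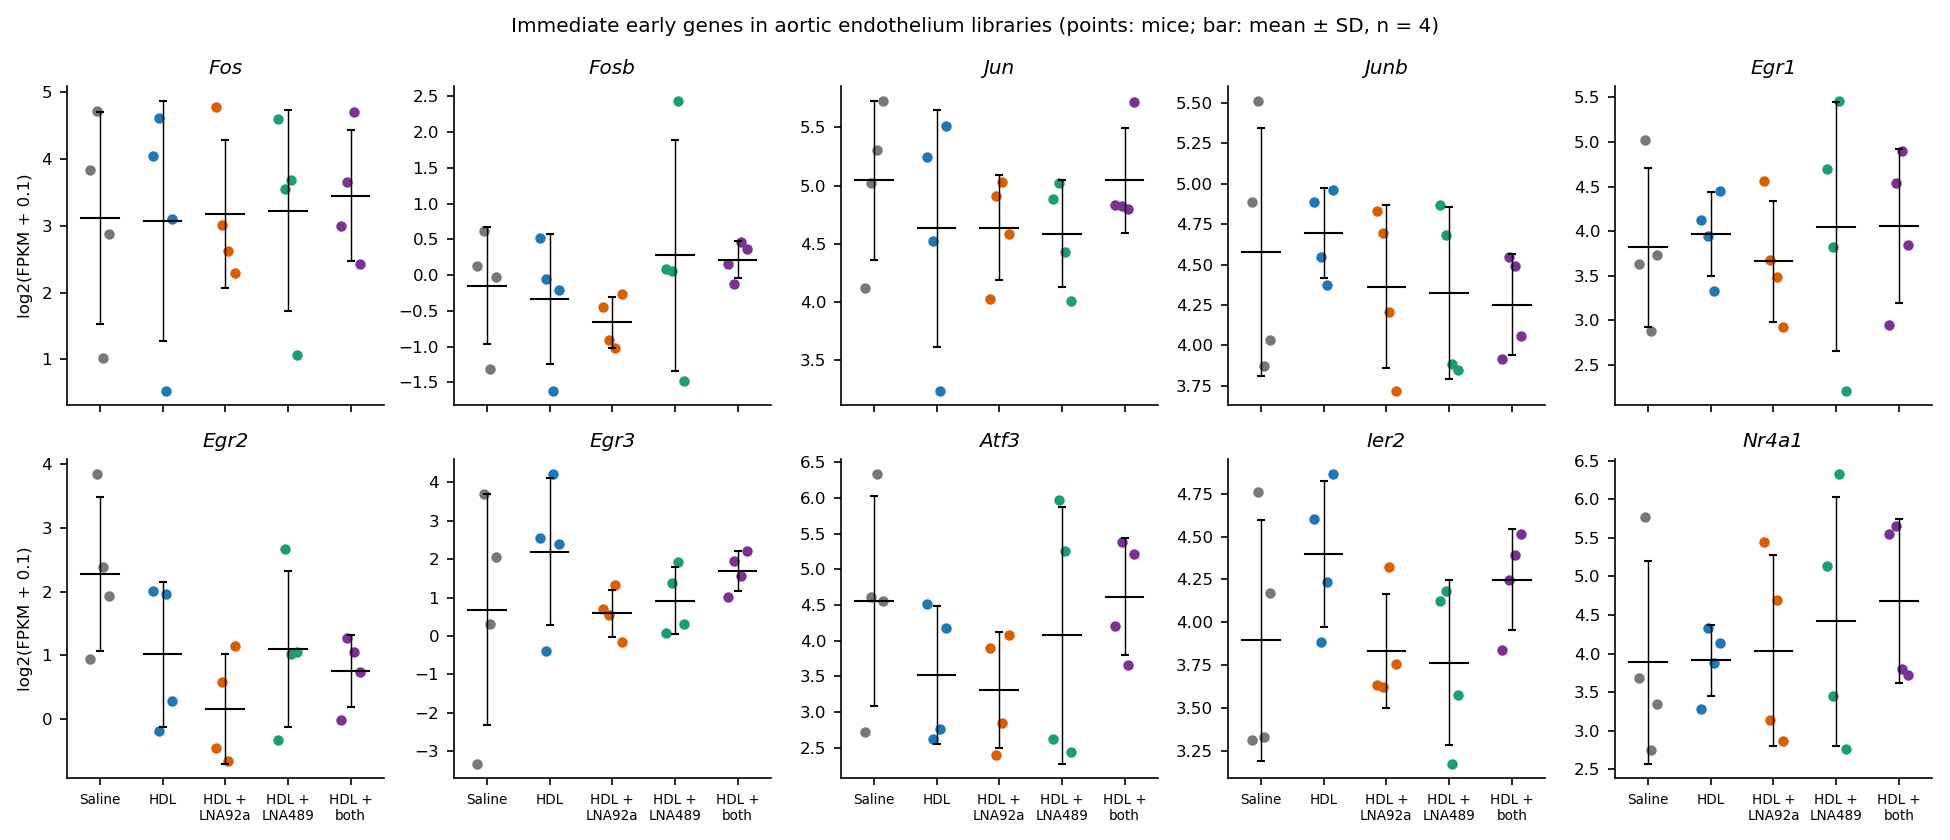
Level of each of the 10 genes as log2(FPKM + 0.1) (y axis, 1 panel per gene with its own range) in the 5 groups (x axis); points are mice, the horizontal line is the group mean and the whiskers are ± 1 SD, n = 4. All pairs of groups overlap in every panel except LNA92a and dual in that of Fosb, a pair for which 9.74% of all genes did not overlap in FPKM, and Fos, Nr4a1, Atf3 and Egr3 have the widest spreads within groups.

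**Figure D2:**
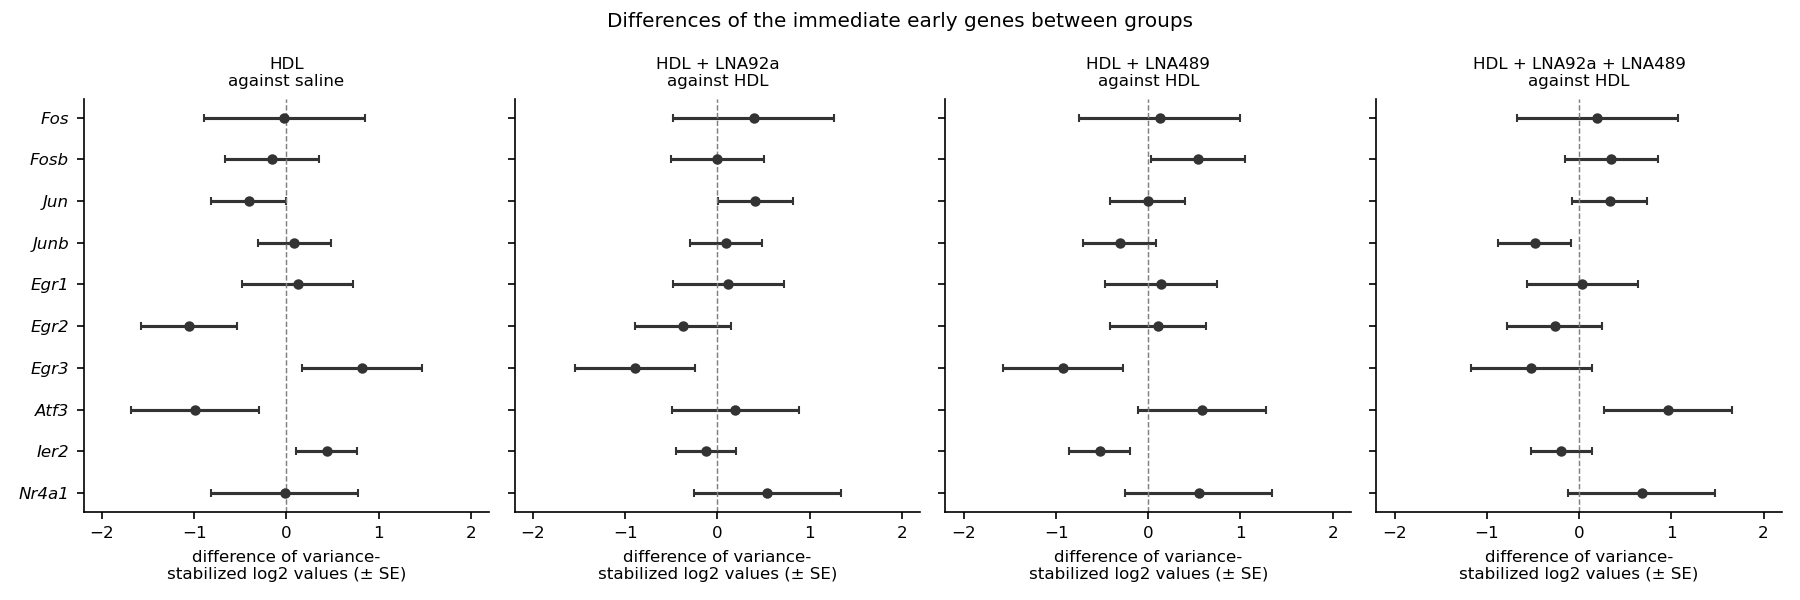
Difference of the variance-stabilized log2 values (x axis) for the 10 genes (y axis) in the 4 main comparisons; points are limma estimates, whiskers are ± 1 SE and the dashed line is 0. The difference farthest from 0 is that of Egr2 in HDL against saline, -1.06 ± 0.52.

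Fos (ENSMUSG00000021250.13, chr12:85473890-85477273), the founding Fos protein of AP-1, had the widest spread within groups of all members. Fos read 14.1, 26.2, 1.93 and 7.27 FPKM in the saline mice and 16.4, 24.2, 1.35 and 8.46 FPKM in the HDL mice. With LNA92a its values were 27.3, 7.94, 6.03 and 4.79 FPKM, with LNA489 24.0, 11.6, 12.8 and 2.00 FPKM, and with both inhibitors 7.89, 12.5, 26.0 and 5.28 FPKM. Each group held at least 1 mouse above 23 FPKM and 1 at or below 5.3 FPKM, and all groups overlapped. The highest library, LNA92a mouse 5, was 20.3 times the lowest, HDL mouse 11 (47 reads). The differences were -0.02 in HDL against saline, and against HDL 0.39 with LNA92a, 0.12 with LNA489 and 0.19 with both (SE 0.87 each).

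Fosb (ENSMUSG00000003545.3, chr7:19302696-19310051), a Fos paralogue, was the lowest of the 10 by FPKM, at a mean of 1.04. Fosb read 0.991, 1.43, 0.304 and 0.887 FPKM in the saline mice and 1.33, 0.866, 0.227 and 0.770 FPKM in the HDL mice. In the LNA92a, LNA489 and dual groups it read 0.634, 0.433, 0.396 and 0.731 FPKM, 0.961, 0.940, 5.34 and 0.260 FPKM and 1.01, 0.818, 1.28 and 1.19 FPKM, in that order. Mouse 14 of the LNA489 group stood above all other libraries, and HDL mouse 11 was again the lowest, with 21 reads. The 4 LNA92a mice lay below the 4 dual mice in FPKM, as in 9.74% of all genes, while on the variance-stabilized scale these groups overlapped. FPKM of the LNA92a group sat lower for most genes, with a median difference from HDL of -0.47 on log2(FPKM + 0.1) over all genes, against -0.06 on the variance-stabilized scale. The differences were -0.15 in HDL against saline, and against HDL 0.00 with LNA92a, 0.54 with LNA489 and 0.35 with both (SE 0.51 each).

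Jun (ENSMUSG00000052684.4, chr4:95049034-95052222), the DNA-binding partner of Fos in AP-1, had the highest mean level of the 10, 29.9 FPKM. Jun read 17.3, 32.5, 39.5 and 53.0 FPKM in the saline mice and 37.9, 22.9, 9.35 and 45.6 FPKM in the HDL mice. The inhibitor groups read 16.2, 29.97, 32.6 and 23.9 FPKM (LNA92a), 29.4, 32.4, 21.4 and 16.03 FPKM (LNA489) and 28.5, 28.2, 27.8 and 52.6 FPKM (dual). HDL mouse 11 was below all other libraries, and Saline mouse 24 and dual mouse 21 were the highest. The differences were -0.41 in HDL against saline, and against HDL 0.41 with LNA92a, -0.01 with LNA489 and 0.33 with both (SE 0.41 each). Reads of Jun cannot be told apart from those of the overlapping antisense gene Junos, since the strand used in counting is not given in the sources used here.

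Junb (ENSMUSG00000052837.6, chr8:84974484-84978718), a Jun paralogue with weaker transactivation, ranged 3.48 times over the 20 libraries. Junb read 29.5, 45.6, 14.6 and 16.3 FPKM in the saline mice and 29.5, 23.3, 20.6 and 31.1 FPKM in the HDL mice. With LNA92a its values were 28.3, 25.8, 18.4 and 13.1 FPKM, with LNA489 29.1, 25.6, 14.7 and 14.3 FPKM, and with both inhibitors 15.0, 23.3, 22.4 and 16.6 FPKM. Saline mouse 2 was the highest and LNA92a mouse 18 the lowest, and the 4 dual mice lay below 24 FPKM, 2 of them below all 4 HDL mice, and the groups overlapped. The differences were 0.09 in HDL against saline, and against HDL 0.09 with LNA92a, -0.31 with LNA489 and -0.48 with both (SE 0.40 each). An exon of Prdx2 overlaps Junb on the opposite strand, so its reads are uncertain in the same way.

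Egr1 (ENSMUSG00000038418.7, chr18:34859823-34864984), a zinc-finger factor induced by shear stress and growth factors in vessels, had group means from 9.82 to 10.08 on the variance-stabilized scale. Egr1 read 12.3, 32.4, 7.23 and 13.2 FPKM in the saline mice and 17.4, 15.3, 9.98 and 21.8 FPKM in the HDL mice. In the LNA92a, LNA489 and dual groups it read 23.5, 12.7, 11.1 and 7.47 FPKM, 25.8, 14.0, 44.1 and 4.53 FPKM and 7.59, 23.1, 29.8 and 14.3 FPKM, in that order. The highest and the lowest of the 20 libraries were both in the LNA489 group, mouse 14 and mouse 19. The differences were 0.12 in HDL against saline, and against HDL 0.12 with LNA92a, 0.14 with LNA489 and 0.03 with both (SE 0.60 each).

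Egr2 (ENSMUSG00000037868.15, chr10:67535475-67542188), a factor also expressed in macrophages and lymphocytes, was the member with the largest share of variance between groups. Egr2 read 1.82, 14.3, 5.12 and 3.70 FPKM in the saline mice and 3.95, 0.777, 3.80 and 1.12 FPKM in the HDL mice. The inhibitor groups read 0.633, 1.41, 0.534 and 2.13 FPKM (LNA92a), 0.695, 6.24, 1.93 and 1.98 FPKM (LNA489) and 0.888, 2.31, 1.98 and 1.56 FPKM (dual). Saline mouse 2 was the highest library, and 3 of the 4 saline mice read above 3.7 FPKM, while no LNA92a or dual mouse did. Saline mouse 1, at 1.82 FPKM, lay inside the range of the other groups. The difference of HDL from saline was -1.06 ± 0.52 (SE), with an unadjusted p of 0.0557 and an adjusted p of 1.00 by limma. With LNA92a the limma difference from saline was -1.43 (unadjusted p of 0.0128, adjusted 0.855). With LNA489 it was -0.96 (unadjusted 0.0817, adjusted 0.996), and in the dual group -1.33 (unadjusted 0.0196, adjusted 1.00). These comparisons share the 4 saline libraries. Egr2 was the 1 member of 10 at an unadjusted p under 0.05 with LNA92a against saline and in the dual group against saline, where 4.4% and 1.05% of all genes were. The dual and saline groups did not overlap on the variance-stabilized scale, as in 0.962% of genes, but overlapped in FPKM. Against HDL the Egr2 differences were -0.37 with LNA92a, 0.10 with LNA489 and -0.27 with both (SE 0.52), so the estimate for the gene with the miR-92a-3p seed match lay below 0 with LNA92a (unadjusted p of 0.484 by limma). Summed macrophage markers ranged from 1438 to 7997 FPKM in the saline mice and from 888 to 3046 FPKM in the HDL mice, from 600 to 1947 FPKM with LNA92a, from 1072 to 10613 FPKM with LNA489 and from 2930 to 8581 FPKM in the dual group, and all 10 of those markers were lower in HDL than in saline (0 of 10 called). Their part in the Egr2 values was not tested.

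Egr3 (ENSMUSG00000033730.3, chr14:70077203-70082614), a paralogue with targets in common with Egr2, was read less deeply. Egr3 read 0, 12.7, 1.14 and 4.08 FPKM in the saline mice and 5.72, 0.666, 18.5 and 5.17 FPKM in the HDL mice. With LNA92a its values were 1.52, 1.35, 2.39 and 0.790 FPKM, with LNA489 0.947, 2.49, 3.72 and 1.145 FPKM, and with both inhibitors 1.92, 3.77, 2.84 and 4.50 FPKM. In Saline mouse 1 no read was counted, which allows a level of up to 0.127 FPKM (3 reads, counting error only). HDL mouse 11, the lowest library for Fos, Fosb and Jun, was the highest for Egr3, and the LNA92a mice all read below 2.4 FPKM. The differences were 0.82 in HDL against saline, and against HDL -0.90 with LNA92a, -0.92 with LNA489 and -0.52 with both (SE 0.65 each), with unadjusted p of 0.186 and 0.173 for the single inhibitors. The file's gene length for Egr3, 1416 bases, is shorter than the 4406 exon bases of the reference used here, so its FPKM is not on the same footing as that of the others.

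Atf3 (ENSMUSG00000026628.13, chr1:191170296-191218039), a CREB-family repressor induced by cell stress, ranged 15.7 times. Atf3 read 6.495, 24.3, 81.0 and 23.4 FPKM in the saline mice and 22.8, 6.04, 6.65 and 17.9 FPKM in the HDL mice. In the LNA92a, LNA489 and dual groups it read 14.8, 5.14, 7.08 and 16.9 FPKM, 6.08, 62.7, 38.1 and 5.34 FPKM and 18.4, 41.8, 12.6 and 37.0 FPKM, in that order. Saline mouse 9 and LNA489 mouse 13 stood highest, and each group also held a mouse below 13 FPKM. The differences were -0.99 in HDL against saline, and against HDL 0.20 with LNA92a, 0.58 with LNA489 and 0.96 with both (SE 0.69 each), with unadjusted p of 0.170 for HDL against saline and 0.182 for dual against HDL. Macrophage markers, with which Atf3 had r = 0.59 over the libraries, were lower in 10 of 10 cases in HDL against saline (median -0.84) and higher in 10 of 10 with LNA489 (0.45) and in the dual group (0.95) against HDL, and their part in the Atf3 values was not tested.

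Ier2 (ENSMUSG00000053560.4, chr8:84661331-84662852), a nuclear protein of the immediate early response, was the steadiest member, with a range of 3.26 times. Ier2 read 9.82, 27.0, 9.97 and 17.9 FPKM in the saline mice and 24.1, 14.7, 18.7 and 29.1 FPKM in the HDL mice. The inhibitor groups read 12.3, 12.2, 19.9 and 13.4 FPKM (LNA92a), 17.4, 18.1, 8.93 and 11.8 FPKM (LNA489) and 14.2, 18.9, 20.9 and 22.8 FPKM (dual). HDL mouse 23 was the highest and LNA489 mouse 14 the lowest library. The differences were 0.44 in HDL against saline, and against HDL -0.12 with LNA92a, -0.53 with LNA489 and -0.20 with both (SE 0.33 each). The unadjusted p for LNA489 against HDL, 0.126, was the smallest of any member in that comparison.

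Nr4a1 (ENSMUSG00000023034.6, chr15:101254269-101274795), an orphan nuclear receptor that is quickly induced in endothelium and myeloid cells, ranged 12.1 times over the libraries. Nr4a1 read 12.8, 54.6, 6.62 and 10.0 FPKM in the saline mice and 9.62, 20.1, 14.7 and 17.5 FPKM in the HDL mice. With LNA92a its values were 43.3, 8.75, 25.8 and 7.20 FPKM, with LNA489 34.9, 10.8, 80.3 and 6.71 FPKM, and with both inhibitors 46.8, 50.0, 13.8 and 13.1 FPKM. Saline mouse 2, LNA92a mouse 5, LNA489 mice 7 and 14 and dual mice 8 and 10 were above 34 FPKM, and all 4 HDL mice were below 21 FPKM. The differences were -0.02 in HDL against saline, and against HDL 0.54 with LNA92a, 0.55 with LNA489 and 0.68 with both (SE 0.80 each). The file's length for Nr4a1, 2474 bases, differs from the 3509 exon bases of the reference used here.

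The make-up of the response differed from mouse to mouse. Jun had the highest FPKM of the 10 in 8 libraries, Nr4a1 in 6, Junb and Atf3 in 2 each, and Fos and Egr1 in 1 each. In Saline mouse 9 Atf3 alone made up 48.4% of the members' summed FPKM. The ratio of Fos to Jun FPKM ran from 0.0488 in that mouse to 1.69 in LNA92a mouse 5. Saline mouse 2 was among the 5 highest libraries for 8 of the 10 members, and LNA489 mouse 19 among the 5 lowest for 8. Saline mouse 9 was among the 5 lowest for 7 members and among the 5 highest for the other 3, one of them Atf3.

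Members were then compared with one another over the 20 libraries, by Pearson's r with permutation p adjusted over the 45 pairs. Of these, 9 pairs passed an adjusted p under 0.05, all positive, and 8 of them also by Spearman's rho. Pairs of other genes were not tested in this way, so no share over all genes stands beside this count. The libraries are mixtures, so whether such relations are particular to the members was not tested. Fos and Egr1 were the closest pair (r = 0.83, p = 2e-05, adjusted p = 0.0009; rho = 0.82, p = 3e-05, adjusted p = 0.00135). Fos with Junb followed (r = 0.75, p = 0.00016, adjusted p = 0.0036; rho = 0.72, adjusted p = 0.00956). Then came Fosb with Egr1 (r = 0.71, p = 0.00024, adjusted p = 0.0036; rho = 0.62, adjusted p = 0.0359) and Egr1 with Nr4a1 (r = 0.70, p = 0.00079, adjusted p = 0.00889; rho = 0.73, adjusted p = 0.00956). Fos with Fosb (r = 0.63), Junb with Egr1 (0.61), Junb with Ier2 (0.60), Fos with Nr4a1 (0.60) and Fosb with Nr4a1 (0.57) had permutation p of 0.00252 to 0.00587 and adjusted p of 0.0227 to 0.0293. The last of these missed the threshold by rho (adjusted p = 0.103). Without the 2 libraries farthest from the median of the first gene, r was 0.80 for Fos with Egr1, 0.74 for Fos with Junb, 0.67 for Fosb with Egr1 and 0.62 for Egr1 with Nr4a1, which then missed the threshold. Those 4 pairs also passed with any 1 library left out, an alternative added after the data were seen. The other 5 pairs lost the call in 3 to 6 of the 20 such settings and without the 2 farthest libraries, where their r was 0.43 to 0.55. With 1 library left out their r stayed between 0.45 and 0.82. Their calls, already nearer the threshold, thus depended on which libraries were kept. With group means removed 10 pairs passed, the 9 called pairs among them, and r was 0.83 for Fos with Egr1. Within the 7 libraries poor in adipocyte markers r for Fos with Egr1 was 0.82, and within the other 13 it was 0.82. Other called pairs varied more between these sets. Fos with Fosb had r = 0.91 in the 7 and 0.43 in the 13, Fos with Nr4a1 0.19 and 0.52, and Fosb with Nr4a1 0.19 and 0.57.

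With the variance-stabilized values of all 20 libraries and group means kept, Jun, Egr2, Egr3 and Atf3 were in no called pair. Jun and Fos, the AP-1 partners, had r = 0.28, and Egr1 and Egr2 had r = -0.06. The highest r of Atf3 and Egr2 with any member was 0.41, with each other. In other settings some values lay farther from 0. Egr2 with Egr3 had r = 0.40, and 0.60 with group means removed. Egr2 with Nr4a1 had r = -0.23, and -0.69 without the 2 farthest libraries. Egr3 with Ier2 had r = 0.48, and 0.65 on log2(FPKM + 0.1). Of the genes in the 9 called pairs, Fos, Fosb, Junb and Nr4a1 have a printed promoter window, and all 4 hold the TGACG half-site. So does Atf3, whose r with them was -0.27 to 0.26. Egr1 and Ier2, also in called pairs, had no window, and a part of the half-site in these relations was not tested.

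**Figure D3:**
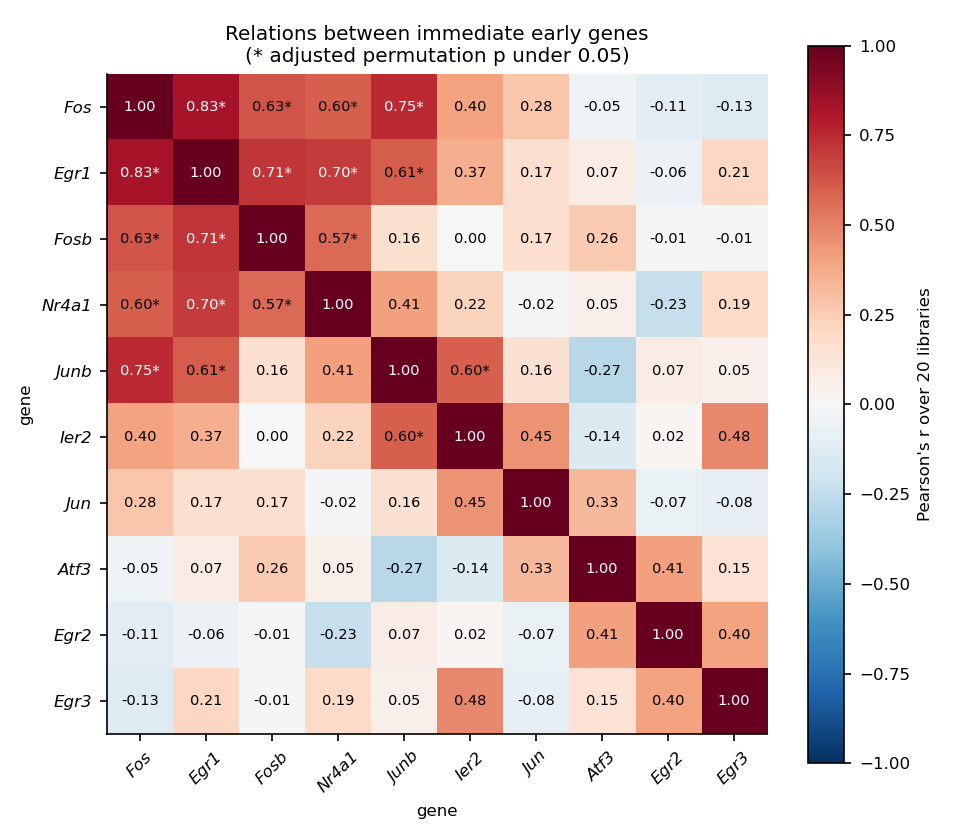
Pearson's r over 20 libraries between each pair of the 10 genes (both axes; color from -1 to 1, values printed in the cells, asterisks for a permutation p under 0.05 after adjustment over 45 pairs). Fos, Egr1, Fosb, Nr4a1 and Junb have r from 0.16 to 0.83 with one another, and no pair that holds Jun, Atf3, Egr2 or Egr3 has an asterisk.

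To describe what else the libraries share, each member was set against the mean of 9 cell type marker lists, a heat shock list, the assigned reads and the Rn18s-rs5 share. None of the 120 relations passed an adjusted permutation p under 0.05, by r (lowest adjusted p = 0.182) or by rho (lowest 0.129), and r ran from -0.56 to 0.60. Fos had r = 0.60 (p = 0.00562, adjusted p = 0.182; rho = 0.64, adjusted p = 0.129) with adipocyte markers and r = 0.59 (p = 0.00705, adjusted p = 0.182; rho = 0.61, adjusted p = 0.129) with fibroblast markers. Without LNA489 mouse 19 these were 0.69 and 0.70 and passed (adjusted p = 0.048 each). Without the 2 farthest libraries they were 0.48 and 0.46. The 20 libraries fell into 7 with an adipocyte list mean up to 9.08 (2 saline, 3 HDL, 0 LNA92a, 1 LNA489 and 1 dual) and 13 from 10.01 up, and r of Fos with adipocyte markers was 0.19 within the 7 and 0.53 within the 13. Nr4a1 had r = 0.55 with adipocyte markers and 0.57 with heat shock genes. Jun had r = 0.52 with endothelial markers (p = 0.0148, adjusted p = 0.182; rho = 0.64, adjusted p = 0.129), and Fos -0.43 with them (adjusted p = 0.332; rho = -0.50, adjusted p = 0.233). Within the 7 libraries poor in adipocyte markers both were positive, 0.88 for Jun and 0.78 for Fos, and within the 13 they were 0.34 and -0.65. The lowest r, -0.56, was that of Jun with B cell markers (p = 0.0242, adjusted p = 0.237; rho = -0.35, adjusted p = 0.458). With 1 library left out it ran from -0.76 to -0.04, and without the 2 farthest libraries it was -0.39. HDL mouse 11 had the highest B cell list mean, 11.98, and the lowest Jun level. Fos had r = -0.53 with T and NK cell markers (p = 0.0151, adjusted p = 0.182; rho = -0.47, adjusted p = 0.279), and -0.68 to -0.42 with 1 library left out. Atf3 had r = 0.59 with macrophage markers, 0.59 with neutrophil markers and -0.53 with adipocyte markers, and Egr2 0.53 and 0.48 with neutrophil and macrophage markers. The neutrophil marker Ly6g was listed at 0 in 17 of the 20 libraries. None of these differences between members was tested, and the part of the cell mixture in the members' levels was not tested.

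**Figure D4:**
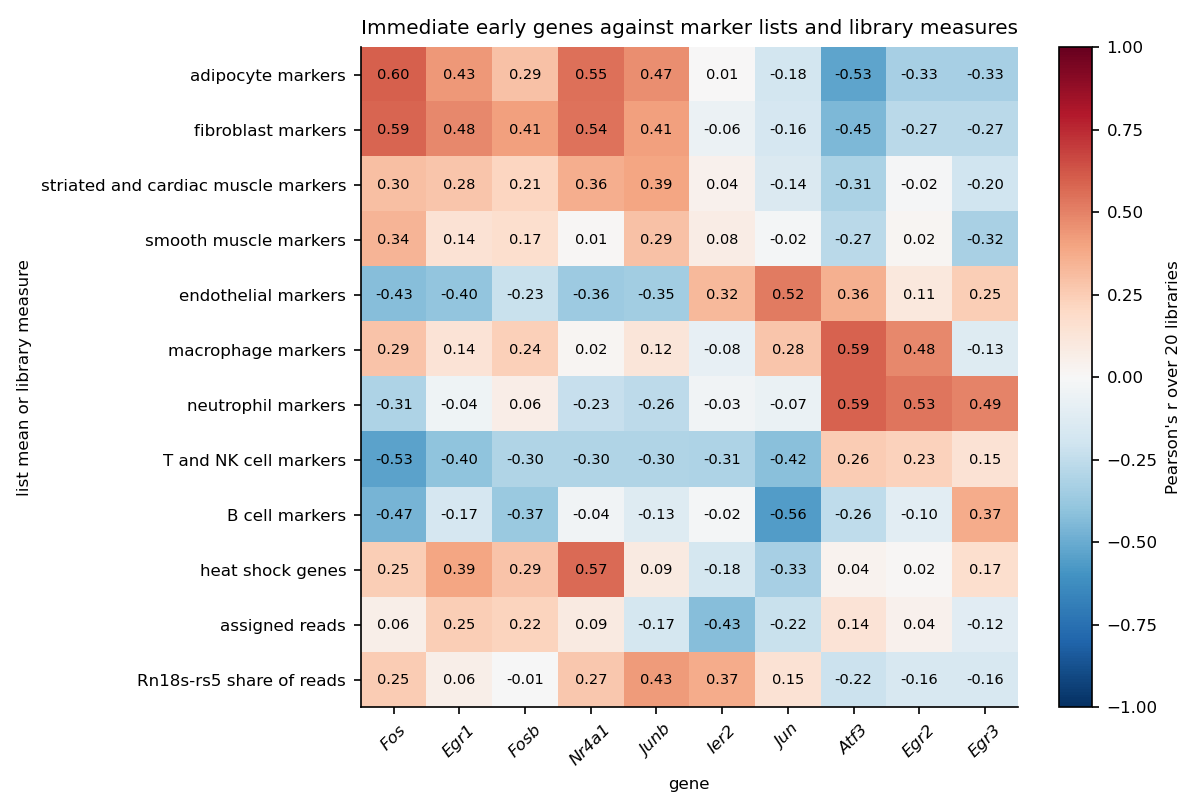
Pearson's r over 20 libraries of each of the 10 genes (x axis) with the mean of each marker list or library measure (y axis), from -1 to 1 by color. Fos reaches 0.60 with adipocyte markers, Jun 0.52 with endothelial markers and Atf3 0.59 with macrophage markers, and no cell passed the adjusted threshold.

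**Figure D5:**
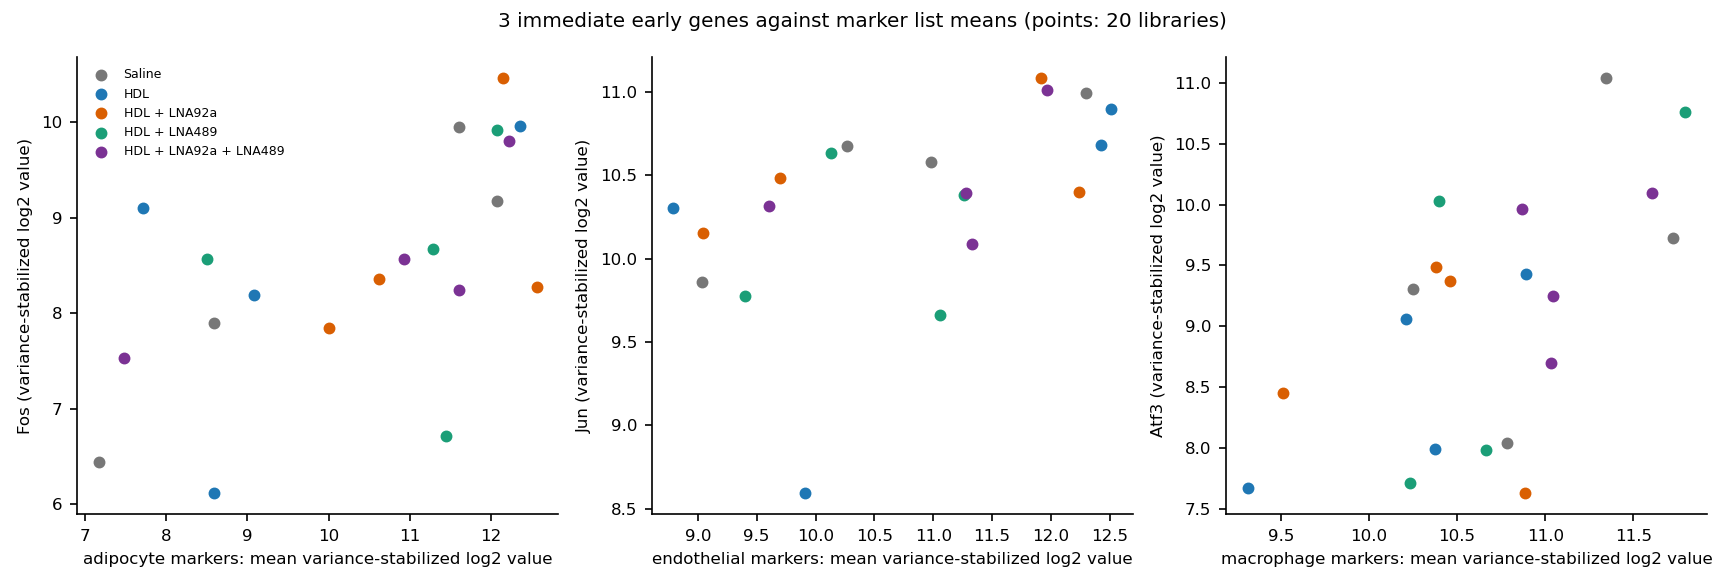
Variance-stabilized log2 value (y axes) of Fos, Jun and Atf3 in the 20 libraries against the mean of adipocyte, endothelial and macrophage markers (x axes, same scale), points colored by group. The adipocyte list shows a gap between 9.08 and 10.01, and the LNA92a mice all lie above it on that axis while the other groups lie on both sides.

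Other genes of the same response were described by lists. Of 17 other immediate early transcription factors 14 were tested and 0 were called in any of the 4 comparisons by limma. Jund, Egr4 and Npas4, the 3 not tested, were listed at 0 in 17, 18 and 11 of the 20 libraries. Whether these values reflect missing RNA or reads lost in counting was not tested, so they do not measure absence. In HDL against saline 12 of the 14 were higher (median 0.29, all genes 0.03, and 1 at an unadjusted p under 0.05 by limma), beside 54.0% of all genes. Csrnp1, an immediate early factor, read 5.20 ± 0.72 FPKM (SD, n = 4) in saline and 8.09 ± 2.23 FPKM in HDL. Klf2, the shear-responsive endothelial factor, read 42.5 ± 25.0 FPKM in saline and 92.2 ± 38.9 FPKM in HDL, beside endothelial markers of which 10 of 10 were higher in HDL (median 0.27). Cebpd read 8.53 ± 4.33 and 12.3 ± 5.92 FPKM, and Klf6 34.4 ± 9.10 and 38.8 ± 11.3 FPKM.

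All 28 feedback and effector genes, which shut the response down or carry it out, were tested and 0 were called. In HDL against saline 24 of the 28 were higher (median 0.33), and in LNA489 against HDL 24 of 28 were lower (median -0.22, all genes -0.05). Of all genes 54.0% were higher in HDL against saline and 44.8% in LNA489 against HDL. The 4 HDL libraries enter both comparisons with opposite sign, so these counts are not independent. Of the members 4 of 10 were higher in the first of these comparisons and 4 of 10 lower in the other. Nfkbia, the NF-kappaB inhibitor, read 37.7 ± 13.9 FPKM in saline, 65.3 ± 17.4 in HDL and 40.5 ± 6.31 with LNA489. Nfkbiz read 11.3 ± 2.60, 15.2 ± 2.10 and 11.2 ± 3.02 FPKM in the same groups, and Ier5 9.42 ± 6.54, 15.9 ± 12.8 and 6.96 ± 3.96 FPKM. Rhob, a small GTPase, read 91.4 ± 52.5, 105.3 ± 80.2 and 75.2 ± 41.3 FPKM. Endothelial markers were lower in 9 of 10 cases in LNA489 against HDL (median -0.54). B cell markers were higher in 5 of 5 cases in HDL against saline (median 1.25) and lower in 5 of 5 in LNA489 against HDL (-0.44), with 0 called. HDL mouse 11, the highest library for B cell markers, was also the highest for Ier5 (34.4 FPKM), while Nfkbia, Nfkbiz and Rhob were highest in other libraries. The part of these cell types in the counts was not tested.

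Heat shock genes, chaperones that heat and handling stress induce, were all tested (12 of 12) with 0 called, and 7, 6, 7 and 8 of the 12 were higher in the 4 comparisons. Hspa1a, an inducible chaperone, read 2.43 ± 1.92 FPKM in saline, 2.99 ± 2.59 in HDL, 1.79 ± 1.10 with LNA92a, 1.20 ± 0.81 with LNA489 and 3.18 ± 1.22 in the dual group. Dnajb1, its cochaperone, read 9.27 ± 0.97, 11.4 ± 3.31, 5.98 ± 0.53, 9.75 ± 1.89 and 10.1 ± 1.35 FPKM in the same order. On the variance-stabilized scale the Dnajb1 difference of LNA92a from HDL was -0.43, a fold of 0.74, beside the lower FPKM of most genes in that group given above. Hspb1 read 24.5 ± 17.1 FPKM in saline and 40.8 ± 14.8 in the dual group, and Hspa8 and Hspa5 averaged 140.5 and 59.9 FPKM over all libraries. Of 14 genes of the SRF, CREB and ERK input, 0 were called, and 12 of 14 were lower in LNA92a and in LNA489 against HDL (medians -0.17 and -0.12, all genes -0.06 and -0.05), while 9 of 14 were lower in the dual group against HDL (median -0.11, all genes -0.03). Of all genes 44.2%, 44.8% and 46.4% were higher in these comparisons. Elk1, an ERK-activated partner of SRF, read 3.00 ± 0.28 FPKM in HDL, 2.06 ± 0.91 with LNA92a and 2.03 ± 0.73 with LNA489. Elk4 read 37.5 ± 14.7, 20.7 ± 1.162 and 25.7 ± 2.38 FPKM, and Mapk3 45.4 ± 23.3, 28.7 ± 7.88 and 39.0 ± 16.5 FPKM in the same groups. On the variance-stabilized scale, where the median shift of all genes is smaller, the differences of LNA92a from HDL were -0.18 for Elk1, -0.32 for Elk4 and -0.13 for Mapk3, folds of 0.88, 0.80 and 0.92.

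The 10 genes whose levels over the 20 libraries were most like the members' mean (each member standardized) were named from 14440 genes with a mean of at least 1 FPKM, as a description with no p. Fads2, a fatty acid desaturase, led with r = 0.72 (rho = 0.57), ahead of Fosl2, another Fos family member, with r = 0.66 (rho = 0.73). Then came 6430548M08Rik (0.65), Thnsl2 (0.65), Fbxo36 (0.64), Kif1bp (0.64), Acsl4 (0.64), 2810025M15Rik (0.63), Ifitm2 (0.62) and Zfp36 (0.62), an mRNA-decay factor of the feedback list. A member is part of that mean, so each was set against the mean of the other 9: Egr1 (0.76) and Fos (0.66) lay closest and Egr2 (0.08) and Atf3 (0.15) farthest.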

How the data were processed

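The submitters' processing notes list the genome build GRCm38.p5, the aligner STAR 2.5.3a, the read trimmer cutadapt 1.16, the counter featureCounts 1.15.29, the statistics package DESeq2 1.18.1 and the quality tool FastQC, with no roles. The authors deposited variance-stabilized log2 values for 20442 genes, and FPKM with gene symbols and lengths for 32081. The FPKM divide by all assigned reads, ribosomal ones included. Whether counting used strand, which annotation release it used and how it treated multiply mapped reads are not given in the sources used here.

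Groups came from the sample titles, and each library is 1 mouse. Limma 3.58.1 in R 4.3.3 was fitted to the deposited log2 values of 16848 genes with mean FPKM of at least 0.5, with 5 group means, 15 residual degrees of freedom, a mean trend and Benjamini-Hochberg adjustment (threshold 0.05, 2-sided). Whole reads were recovered from FPKM and gene length: 100% of values checked (genes up to 3000 bases, up to 1000 reads) lay within 0.1 of a whole number. They gave the depth and a voom alternative. Correlations used 100000 permutations (Python 3.11.15, numpy 2.4.6). The scripts were tested on simulated data. Coordinates are 1-based, from GENCODE M21 on GRCm38. Promoters and microRNAs are from RefSeq on GRCm38.p6.

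The text names all 10 members. From each cell type list it names the first 2 genes for the lists described. From each pathway list it names the 3 genes with the smallest F-test p and the 2 with the highest mean FPKM, and it names the 10 genes most like the members' mean. A result for 1 gene of these lists is not reported here. The members and lists were chosen with earlier results of these data known. Alternatives were log2(FPKM + 0.1), log2(FPKM + 1), no filter, a mean FPKM of at least 2, voom, sample weights, median-centred libraries, only the 2 groups compared and leaving out each library.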

Additional observations from a re-analysis of the deposited data

Results flagged for a closer look

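Of 50 sets of 4 values (10 genes in 5 groups), 1 held a library set apart from the others of its group by Dixon's 95% criterion, where chance gives about 1 in 20. This was Junb in HDL mouse 11, at 20.6 FPKM, below the other HDL mice at 23.3 to 31.1 FPKM. On the variance-stabilized scale the gap to its nearest neighbour was 0.954 of the group's range, past the criterion, while in FPKM it was 0.259 of the range and did not pass it. The same library was the lowest of the 20 for Fos, Fosb and Jun and the highest for Egr3.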

How the results depend on the processing

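The 40 member differences of the 4 comparisons were recomputed under the alternatives, which gave 636 results over all differences and settings. In none of these results did an adjusted p fall under 0.05 (lowest 0.216). Of the results 12 had an unadjusted p under 0.05, and 78 turned the sign, which touched 23 of the 40 differences. No member was called in any setting. Over the 6 other pairs of groups, 1 gene was called without LNA92a mouse 12 and 0 otherwise. On log2(FPKM + 0.1) the differences that turned sign were in HDL against saline Nr4a1 0.0226, and in LNA92a against HDL Fosb -0.32, Junb -0.33, Egr1 -0.30, Atf3 -0.21. On log2(FPKM + 1) the differences that turned sign were in HDL against saline Nr4a1 0.00327, and in LNA92a against HDL Fosb -0.19, Jun -0.00232, Junb -0.32, Egr1 -0.28, Atf3 -0.20. With voom the differences that turned sign were in HDL against saline Nr4a1 0.0497, and in LNA489 against HDL Jun 0.00925. With sample weights the differences that turned sign were in HDL against saline Fos 0.22, Fosb 0.0781, Jun 0.0715, and in LNA92a against HDL Fosb -0.18, Jun -0.0872, Junb -0.0741, Egr1 -0.13, Atf3 -0.25, and in LNA489 against HDL Fos -0.49, Egr1 -0.36, Atf3 -0.17, and in dual against HDL Jun -0.29, Egr1 -0.22. With median-centred libraries the differences that turned sign were in HDL against saline Nr4a1 0.00504, and in LNA92a against HDL Fosb -0.0788, and in dual against HDL Egr1 -0.00575. With 1 library left out, the sign turned within these ranges in HDL against saline: Fos -0.66 to 0.72, Fosb -0.48 to 0.19, Jun -0.67 to 0.10, Junb -0.20 to 0.44, Egr1 -0.24 to 0.57, Nr4a1 -0.43 to 0.64. With 1 library left out, the sign turned within these ranges in LNA92a against HDL: Fos -0.35 to 0.93, Fosb -0.34 to 0.21, Jun -0.10 to 0.67, Junb -0.13 to 0.33, Egr1 -0.25 to 0.38, Atf3 -0.0929 to 0.57, Ier2 -0.33 to 0.038. With 1 library left out, the sign turned within these ranges in LNA489 against HDL: Fos -0.62 to 0.71, Fosb -0.0308 to 0.97, Jun -0.52 to 0.25, Egr1 -0.26 to 0.69, Egr2 -0.28 to 0.41, Nr4a1 -0.00246 to 1.03. With 1 library left out, the sign turned within these ranges in dual against HDL: Fos -0.55 to 0.73, Jun -0.18 to 0.59, Egr1 -0.27 to 0.34. In LNA92a against HDL all genes had a median of -0.47 on log2(FPKM + 0.1) and of -0.06 on the deposited scale, so signs there are relative to that shift. Of the 45 pairs of members 9 were called, 6 on log2(FPKM + 0.1), 5 without the 2 farthest libraries, and 4 to 10 with 1 library left out (6 without Saline mouse 2, 4 without Saline mouse 9, 5 without LNA489 mouse 7, 4 without LNA489 mouse 19). Each count is over all 45 pairs, so it can include pairs outside the 9. Of the 9, those called on log2(FPKM + 0.1) were Fos with Fosb, Junb and Egr1, and Egr1 with Fosb and Nr4a1. Without the 2 farthest libraries they were Fos with Junb, Fos with Egr1 and Fosb with Egr1. The 120 relations to marker lists and library measures had 0 to 2 calls with 1 library left out, the 2 without LNA489 mouse 19. Leaving out a library for these relations and the split by adipocyte markers were added after the data were seen. The cause of these changes was not tested. No paired analysis was possible because the animal numbers differ between the groups. With 4 mice a group and a median SE of 0.56, moderate and even large differences of the members could be missed. The Egr2 difference of -1.43 in LNA92a against saline had an adjusted p of 0.855 by limma. Each limma p-value sets a difference against the spread between mice within the 5 groups.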
